A study of Mus musculus with 6 samples.

Results

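The 10 genes described here encode the transporter of immunoglobulin A and a set of chemokines and cytokines that gut epithelium can release: Pigr, Ccl28, Ccl20, Ccl25, Cxcl16, Cx3cl1, Il18, Il15, Tslp and Tnfsf13. They were taken by gene symbol, and all 10 were found among the 24346 entries that each library lists. Epithelial cells came from the distal, middle and proximal colon of wild-type C57BL/6J mice, an inbred strain, without treatment. Each region has 1 female and 1 male library, so n = 2 per region and 6 libraries in all; the labels give no age, no number of mice per library, and not whether regions of a sex share animals. P-values therefore measure the spread between these libraries, part of which may be technical.

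Secretory immunity in the colon depends on plasma cells below the epithelium, which secrete polymeric IgA. The polymeric immunoglobulin receptor, the product of Pigr, binds it at the basolateral face of the epithelial cell, carries it across and is cleaved at the luminal face, where part of the receptor leaves with the antibody. Epithelial chemokines draw in the cells that take part: CCL28 attracts IgA plasmablasts through CCR10, CCL20 attracts CCR6-bearing B cells and dendritic cells, and CCL25 attracts CCR9-bearing lymphocytes. IL-18, IL-15, TSLP and APRIL (the product of Tnfsf13) act on lymphocytes and plasma cells near the epithelium.

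The region before the gene start is shown for Pigr, whose transcript was the most abundant of the 10, for Ccl28 and Il18, which differed between regions below, and for Ccl20, a chemokine gene known as a target of NF-kB. RefSeq's promoter table (GRCm38.p6, the mm10 assembly) held 7 of the 10 genes; Cxcl16, Il15 and Tslp were without an entry. The 250 bases upstream of the RefSeq start are printed 5′ to 3′ on the plus strand, at chr1:130826434-130826683 for Pigr, chr13:119623569-119623818 for Ccl28, chr9:50554450-50554699 for Il18 and chr1:83116516-83116765 for Ccl20. Capitals mark matches to 6 motifs on either strand. They are those of NF-kB and of interferon regulatory factors, searched by consensus, and AP-1 (TGANTCA), a motif of factors induced by stress and growth signals. The E-box (CACGTG) is bound by helix-loop-helix factors such as USF. The other two are a TATA motif (TATAAA), which places the start of transcription in some promoters, and a motif of the intestinal CDX factors (TTTATG). An interferon regulatory factor match is in 2.98% of windows, AP-1 in 6.75% and CDX in 10.8%.
Pigr: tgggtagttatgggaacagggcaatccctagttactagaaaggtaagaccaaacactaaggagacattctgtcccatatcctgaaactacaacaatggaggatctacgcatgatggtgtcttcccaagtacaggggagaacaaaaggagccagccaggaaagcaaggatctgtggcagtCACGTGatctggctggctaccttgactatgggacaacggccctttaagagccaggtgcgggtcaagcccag
Ccl28: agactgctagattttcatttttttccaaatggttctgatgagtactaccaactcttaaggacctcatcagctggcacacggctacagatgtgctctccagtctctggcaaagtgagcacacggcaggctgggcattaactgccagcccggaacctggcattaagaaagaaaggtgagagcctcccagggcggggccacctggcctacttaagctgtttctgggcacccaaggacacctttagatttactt
Il18: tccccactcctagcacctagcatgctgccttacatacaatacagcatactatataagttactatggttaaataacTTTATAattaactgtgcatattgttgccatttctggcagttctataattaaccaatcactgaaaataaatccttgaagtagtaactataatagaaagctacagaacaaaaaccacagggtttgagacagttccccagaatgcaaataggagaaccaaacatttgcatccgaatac
Ccl20: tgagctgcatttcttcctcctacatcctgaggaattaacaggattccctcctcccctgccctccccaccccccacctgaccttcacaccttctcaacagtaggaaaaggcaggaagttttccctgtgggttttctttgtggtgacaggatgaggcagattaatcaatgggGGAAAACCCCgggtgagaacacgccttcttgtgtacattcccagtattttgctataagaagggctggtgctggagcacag
The Pigr window held 1 match, the E-box at 71 to 66 bases before the start, a palindrome that reads the same on both strands; USF factors are known to bind an E-box of the human gene's promoter. An E-box was present in 6.02% of the 32851 promoter windows of the table. The Ccl20 window held an NF-kB match on the minus strand, a motif found in 7.25% of windows. The Il18 window, at 35.6% G and C the least rich of the 4, held a TATA match on the minus strand, far from the RefSeq start (12.4% of windows hold the motif). This window ends at 50554699, while the Il18 coordinates given below, from another annotation, start at 50554827. The bases between are not shown. The Ccl28 window held none of the 6 motifs, which says only that these letters are not in this window. None of the 4 windows is a measured binding site.

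The libraries read as epithelium. All 10 epithelial markers were present in each, at a summed level of 11738 to 14743 FPKM (fragments scaled by transcript length and library size, the unit of all levels here). The sum does not show Cdx2, the 1 gene of the 10 called between distal and proximal colon. It stood at 7.25 and 17.3 FPKM in the female and male distal and 125 and 136 FPKM in the proximal libraries. Its log2 difference was -3.42 (limma adjusted p = 0.00277), and distal against middle colon gave -2.41 (adjusted p = 0.0392). The 9 matched genes of IgA, B and plasma cells summed to at most 1.81 FPKM, with Mzb1 and Tnfrsf17 at 0 in all 6 libraries, and stromal, endothelial and muscle markers to at most 18.5 FPKM. T cell and intraepithelial lymphocyte markers (13 matched) summed to 17.7 and 13.7 FPKM in the female and male distal libraries, 23.9 and 11.98 FPKM in the middle ones and 44.6 and 103 FPKM in the proximal ones. The male proximal library thus carried the highest lymphocyte signal. Of the 17 listed genes, the T cell receptor genes Trac, Trbc1, Trbc2 and Trdc had no entry. The sum includes Ccl5, which is also counted among the other chemokines below. Ccl5 stood at 9.79 and 7.73 FPKM in the female and male distal, 8.30 and 4.97 FPKM in the middle and 15.6 and 35.3 FPKM in the proximal libraries. Myeloid markers (14 matched, 7 kept) summed to 59.5 and 49.95 FPKM in the female and male distal, 62.3 and 49.8 FPKM in the middle and 40.6 and 38.2 FPKM in the proximal libraries. The most abundant gene of that list in each library was Cd14. It stood at 37.8 and 37.9 FPKM in the female and male distal and 20.7 and 12.3 FPKM in the proximal libraries (limma adjusted p = 0.0145). Tyrobp, a signalling adaptor of myeloid and NK cells, ran the other way, at 0.829 and 0.349 FPKM in the female and male distal and 3.07 and 4.80 FPKM in the proximal libraries (log2 difference -1.63, limma adjusted p = 0.0178). Fcer1g, a related adaptor, had a difference of -1.197 (adjusted p = 0.0638). Depth, estimated from steps between small FPKM values, was 7.86 to 9.92 M fragments a library.

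**Figure D1:**
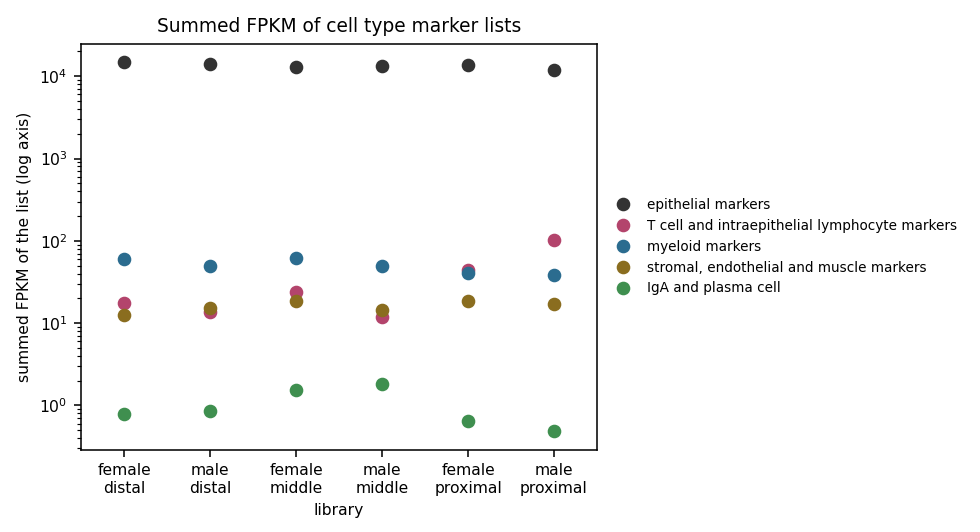
Summed FPKM (log axis) of 5 cell type marker lists in each of the 6 libraries, 1 point per list and library. Epithelial markers lie between 11738 and 14743 FPKM throughout, and the lymphocyte list reaches 103 FPKM in the male proximal library, above its other values of 11.98 to 44.6 FPKM.

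In the distal against the proximal colon, the IgA plasmablast chemokine Ccl28 and the cytokine Il18 rose, on average 2.78-fold and 3.55-fold in FPKM. Of the 9 members that passed a minimum of 1 FPKM in 2 libraries, 2 were called higher and 0 lower by limma (Benjamini-Hochberg adjusted p under 0.05 over 11815 kept genes), where 14.1% of all kept genes were called, 6.47% higher and 7.64% lower. Tslp did not pass the minimum. FPKM of the distal and proximal libraries did not overlap for 7 of the 9 members, 5 higher and 2 lower, against 60.3% of all kept genes (30.8% higher and 29.5% lower). At an unadjusted p under 0.05 the count was 6 of 9, against 29.2% of all kept genes. The median log2 difference was 0.27 over the 9 members and 0.01 over all kept genes. Fitted differences are on the log2(FPKM + 1) scale, which understates changes of genes near 1 FPKM.

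**Figure D2:**
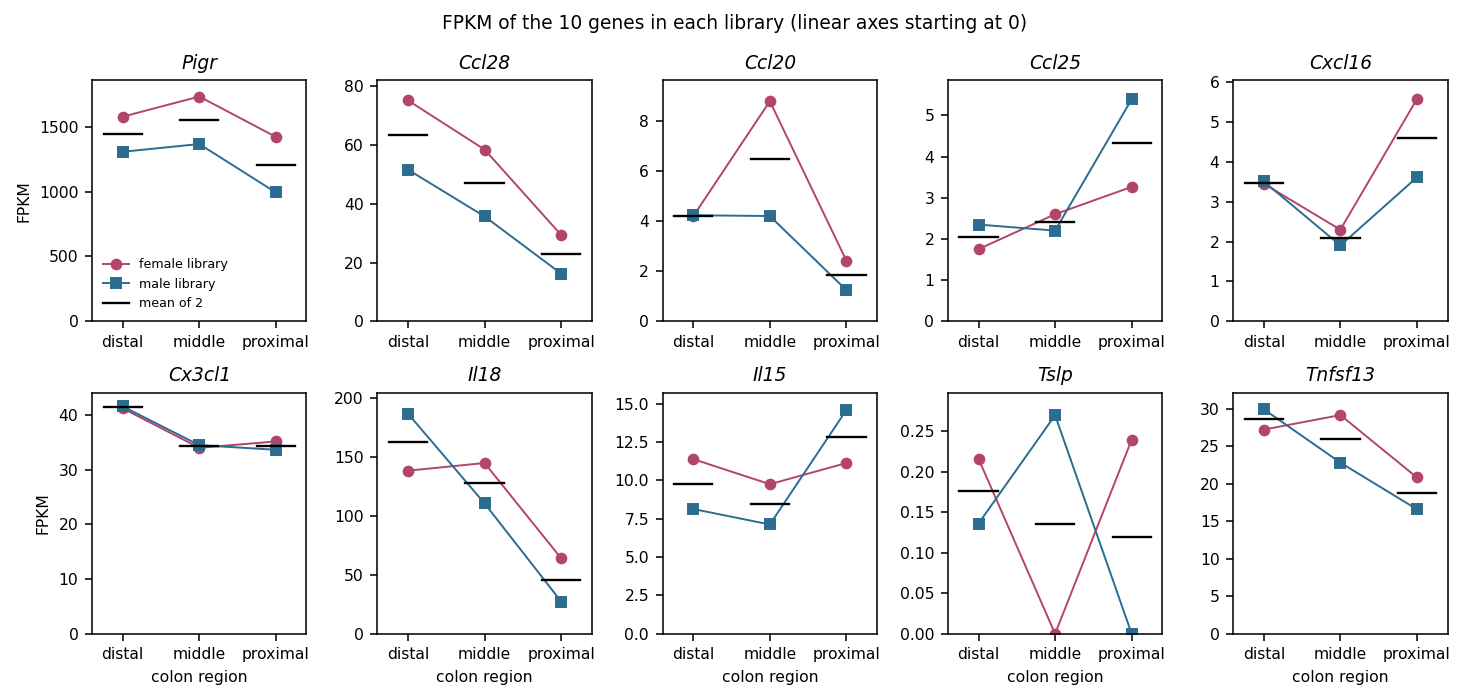
FPKM of each of the 10 genes (linear axes from 0) in the distal, middle and proximal colon, with circles for female and squares for male libraries and a bar for the mean of 2. Ccl28 and Il18 lie lowest in both proximal libraries, and Tslp is at most 0.27 FPKM. Pigr overlaps between regions, with the proximal library lowest in each sex.

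Pigr, the IgA transporter (chromosome 1, 130826684 to 130852249, plus strand, 11 exons), was the most abundant of the 10 in each library, ranking between 40 and 82 of 24346 entries. Its level was 1577 and 1307 FPKM in the female and male distal libraries, 1733 and 1366 FPKM in the middle ones and 1422 and 993 FPKM in the proximal ones. The regions overlapped, while the female library was above the male one in each region and all 3 female values were above all 3 male ones. Within each sex the level was highest in the middle, intermediate in the distal and lowest in the proximal library. The fitted log2 difference of distal against proximal colon was 0.27 (SE 0.16, 95% interval -0.13 to 0.67, limma adjusted p = 0.327). Middle against proximal colon gave 0.37 (SE 0.16, adjusted p = 0.307) and distal against middle colon -0.10 (SE 0.16, adjusted p = 0.859). The highest upper bound of the 95% intervals among the 3 comparisons was 0.77, for middle against proximal colon.

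Ccl28 (chromosome 13, 119623819 to 119654359, plus strand), whose product recruits IgA plasmablasts to the colon and is also antimicrobial, stood at 75.2 and 51.6 FPKM in the female and male distal libraries, 58.5 and 35.7 FPKM in the middle ones and 29.4 and 16.2 FPKM in the proximal ones. In both sexes the level was highest in the distal, intermediate in the middle and lowest in the proximal library. Distal colon averaged 63.4 ± 16.7 FPKM and proximal colon 22.8 ± 9.31 FPKM (SD, n = 2 each), which is 1.47 on the fitted log2 scale (SE 0.11, limma adjusted p = 0.00271). The rise was 2.56-fold between the female libraries and 3.18-fold between the male ones. Middle colon, at 47.1 ± 16.1 FPKM (SD, n = 2), was also above proximal colon, with a fitted difference of 1.03 (SE 0.11, limma adjusted p = 0.0257). Distal and middle colon overlapped, with a difference of 0.44 (SE 0.11, adjusted p = 0.198), although both sexes moved upward. Without sex in the model, the distal call was at adjusted p = 0.0505 and the middle call at 0.236; the middle call was also lost without the female middle (adjusted p = 0.206) or the male middle library (0.117), and without the minimum on FPKM (0.0881).

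Ccl20 (chromosome 1, 83116766 to 83119167, plus strand), the CCR6 ligand made over lymphoid follicles, was a low transcript. It stood at 4.20 and 4.24 FPKM in the female and male distal libraries, 8.80 and 4.21 FPKM in the middle ones and 2.42 and 1.25 FPKM in the proximal ones. Both proximal libraries were below all others, and the female middle library was the highest. The male proximal value corresponds to about 12 fragments and the female middle value to about 106. The differences from proximal colon were 0.91 for distal (SE 0.24, limma adjusted p = 0.0662) and 1.36 for middle colon (SE 0.24, adjusted p = 0.0576), neither past the threshold. Leaving out the female distal library brought the distal value to 1.30 (adjusted p = 0.0449), and without the female distal, male distal or female proximal library the middle value had adjusted p = 0.0343, 0.0342 and 0.0499.

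Ccl25 (chromosome 8, 4325210 to 4360020, plus strand), whose product is best known for homing of lymphocytes to the small intestine, ran the other way. Its level was 1.75 and 2.35 FPKM in the female and male distal libraries, 2.60 and 2.203 FPKM in the middle ones and 3.27 and 5.39 FPKM in the proximal ones. The proximal libraries were above all others, on roughly 25 and 37 fragments against 15 to 22 elsewhere. The log2 difference of distal against proximal colon was -0.78 (SE 0.22, limma adjusted p = 0.0764), not past the threshold, and it was -1.05 (adjusted p = 0.0439) without the female proximal library. Ccl25 shares its first bases with Elavl1 on the opposite strand, and how strand was handled in counting is not stated.

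The chemokines made as membrane-bound proteins, Cxcl16 and Cx3cl1, differed in pattern by region. Cxcl16 (chromosome 11, 70453983 to 70459984, minus strand), the CXCR6 ligand, was at 3.45 and 3.51 FPKM in the female and male distal libraries, 2.30 and 1.90 FPKM in the middle ones and 5.58 and 3.61 FPKM in the proximal ones. Both middle libraries were below all others. Its middle against proximal difference was -0.83 (SE 0.18, limma adjusted p = 0.0846) and its distal against middle difference 0.53 (SE 0.18, adjusted p = 0.323). Cx3cl1 (chromosome 8, 94772009 to 94782427, plus strand), or fractalkine, which binds CX3CR1 on macrophages and other leukocytes, was close to level along the colon. It measured 41.2 and 41.5 FPKM in the female and male distal libraries, 34.0 and 34.5 FPKM in the middle ones and 35.1 and 33.6 FPKM in the proximal ones. Both distal libraries were above the other 4, by little: the fitted log2 value against proximal colon was 0.26 (SE 0.09, 95% interval 0.03 to 0.49, limma adjusted p = 0.138).

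Il18 (chromosome 9, 50554827 to 50581840, plus strand) encodes a cytokine held in epithelial cells as a precursor and released after cleavage by caspase-1. It stood at 139 and 187 FPKM in the female and male distal libraries, 145 and 111 FPKM in the middle ones and 64.2 and 27.4 FPKM in the proximal ones. Both proximal libraries were below the other 4, which overlapped. Distal colon averaged 163 ± 34.3 FPKM and proximal colon 45.8 ± 26.0 FPKM (SD, n = 2 each), which is 1.91 on the fitted log2 scale (SE 0.36, limma adjusted p = 0.0253). The rise was 2.16-fold between the female and 6.82-fold between the male libraries, and the male pair held both the highest and the lowest value. Middle against proximal colon gave 1.57 (SE 0.36, adjusted p = 0.0935), not past the threshold, and adjusted p = 0.038, 0.0373 and 0.00599 without the female distal, male distal and female proximal library. The distal call was lost without the male distal library (1.30, adjusted p = 0.0984), the female middle (0.0556) or the male middle library (0.0552), and without the minimum on FPKM (0.0681). Il18 overlaps Bco2 and Tex12 on the opposite strand; their levels were 7.09 to 13.9 FPKM and 0.902 to 3.33 FPKM.

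Il15 (chromosome 8, 82331632 to 82403222, minus strand), whose product is presented by epithelial cells to intraepithelial lymphocytes, was at 11.4 and 8.14 FPKM in the female and male distal libraries, 9.76 and 7.13 FPKM in the middle ones and 11.1 and 14.6 FPKM in the proximal ones. The highest value was that of the male proximal library, which also had the highest lymphocyte marker sum, and both middle libraries were below both proximal ones; the part of that signal in Il15 was not tested. The log2 difference of distal against proximal colon was -0.37 (SE 0.22, limma adjusted p = 0.334) and that of middle against proximal colon -0.56 (SE 0.22, adjusted p = 0.27). Without the female proximal library these were -0.76 (adjusted p = 0.0282) and -0.95 (0.0224). In bulk RNA, fewer cells of a type and less RNA per cell cannot be told apart, for Il15 as for the other genes.

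Tnfsf13 (chromosome 11, 69682846 to 69685784, minus strand) encodes APRIL, a survival factor for plasma cells. Its level was 27.2 and 29.9 FPKM in the female and male distal libraries, 29.2 and 22.8 FPKM in the middle ones and 20.8 and 16.6 FPKM in the proximal ones. Both proximal libraries were lowest, and distal colon stood at 28.6 ± 1.92 FPKM against 18.7 ± 2.996 FPKM in proximal colon (SD, n = 2 each), which is 0.59 on the fitted log2 scale (SE 0.15, limma adjusted p = 0.0559) and not past the threshold. The gene lies within Tnfsfm13, a read-through with Tnfsf12 on the same strand, but that entry reached at most 0.20 FPKM and Tnfsf12 at most 0.899 FPKM. An antisense gene, Tnfsf13os, overlaps it too and has no entry in the tables used here. Tslp (chromosome 18, 32815383 to 32819797, plus strand), a cytokine that acts on dendritic cells and on lymphocytes, was near the limit of detection. It was listed at 0.216 and 0.136 FPKM in the female and male distal libraries, 0 and 0.27 FPKM in the middle ones and 0.239 and 0 FPKM in the proximal ones. These values correspond to about 2 and 1, 0 and 2, and 2 and 0 fragments, so no difference between regions was detectable at this depth.

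**Figure D3:**
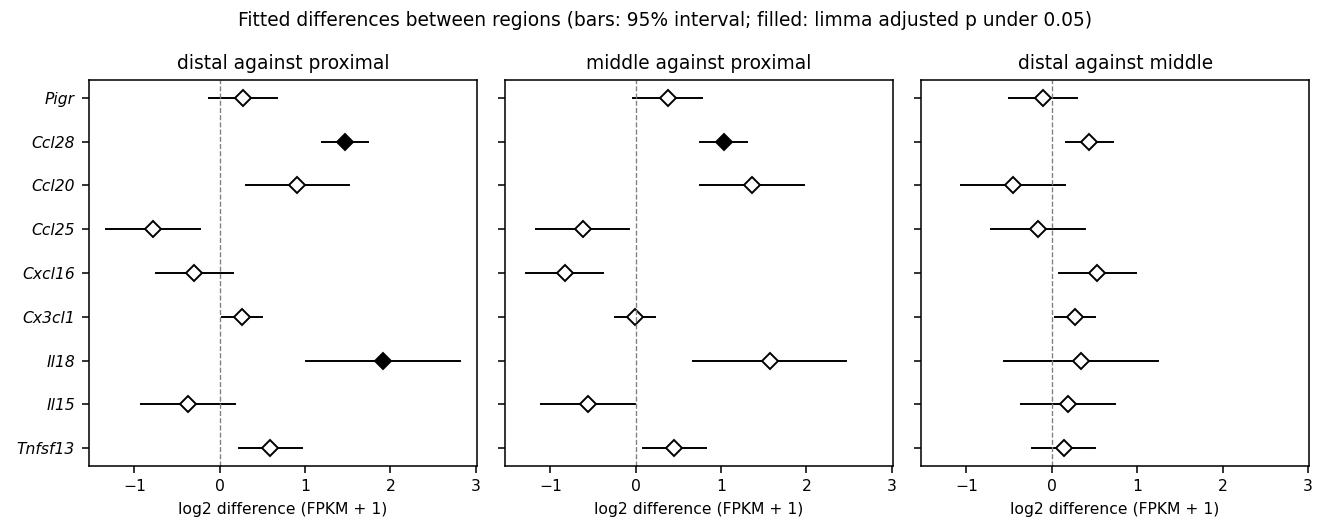
Fitted log2 differences of FPKM + 1 for the 9 members that passed the minimum, in 3 comparisons of regions; bars are 95% intervals and filled diamonds have limma adjusted p under 0.05. Ccl28 and Il18 are filled for distal against proximal colon, Ccl28 for middle against proximal colon, and none for distal against middle colon.

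Between middle and proximal colon, Ccl28 was the 1 member of 9 called, against 2.45% of all kept genes (1.19% higher and 1.25% lower), and 7 of 9 did not overlap, 4 higher and 3 lower, against 43.8% of all kept genes (21.6% higher and 22.2% lower). At an unadjusted p under 0.05 there were 7 of 9, against 18.3%. Between distal and middle colon limma called 0 of 9, against 0.499% of all kept genes (0.11% higher and 0.389% lower). Without adjustment, 3 of 9 had p under 0.05, against 12.7% of all kept genes. Ccl28, Cxcl16 and Cx3cl1 were those 3, and Cxcl16 and Cx3cl1 were the 2 members whose distal and middle libraries did not overlap (39.7% of all kept genes, 20.5% higher and 19.1% lower). The comparisons share libraries, so their values are not separate evidence.

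Between female and male libraries, with region in the model, limma called 0 of 9 members, against 0.0423% of all kept genes (0.00846% higher and 0.0339% lower). Without adjustment, 3 of 9 had p under 0.05, against 10.6% of all kept genes. Ccl28 was higher in the female library of all 3 regions, with a log2 difference of 0.68 (SE 0.09, limma unadjusted p = 0.000406, adjusted p = 0.287). Pigr was higher by 0.38 (SE 0.13, adjusted p = 0.45), also in 3 of 3 regions, and was the 1 member whose female and male libraries did not overlap (8.64% of all kept genes, 4% higher and 4.64% lower). Ccl20 was higher in 2 of 3 regions (0.502, adjusted p = 0.469). The female libraries were the deeper ones, at an estimated 8.93 to 9.92 M fragments against 7.86 to 8.0 M in the male ones. The part of that difference was not tested. The 3 libraries of a sex may share animals. Sex therefore cannot be told apart from animal or from any other difference between the female and the male set of libraries.

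Receptors for these ligands were mostly near 0. Of 15 receptor genes, 4 passed the minimum. In distal against proximal colon none was higher, 1 fell and 3 stayed short of the threshold (median log2 difference -0.69). In the same comparison 6.47% of all kept genes were called higher and 7.64% lower. Il2rg, the common gamma chain of the IL-2 and IL-15 receptors, fell by 0.97 (SE 0.22, limma adjusted p = 0.0406), to 0.896 and 0.375 FPKM in the female and male distal libraries, against 2.22 and 2.12 FPKM in the proximal ones. The lymphocyte marker sum was also lower in both distal libraries than in both proximal ones, and its part in the Il2rg value was not tested. Of its genes, Gzma and Cd7 fell past the threshold (adjusted p = 0.00358 and 0.0215). Cd8a and Gzmb were past it too, but reached 1 FPKM in the 2 proximal libraries alone, so the minimum kept them through the region where they were high and their calls are not support. Il15ra, which presents IL-15 on the epithelial surface, was at 7.72 and 6.77 FPKM in the female and male distal and 9.52 and 9.96 FPKM in the proximal libraries (adjusted p = 0.162). Crlf2, the TSLP receptor chain, and Il2rb averaged 1.77 and 1.41 FPKM over the 6 libraries. Ccr3 and Tnfrsf17 were listed at 0 in all 6 libraries.

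Of 12 kept genes that process or restrain these proteins, 2 rose and 1 fell in distal against proximal colon. The other 9 stayed short of the threshold (median log2 difference 0.09). Over all kept genes 6.47% rose and 7.64% fell. Gsdmd, the pore through which IL-18 can leave a cell, rose by 0.62 (SE 0.12, limma adjusted p = 0.0271), to 117 and 120 FPKM in the female and male distal libraries, against 82.7 and 71.5 FPKM in the proximal ones. The inflammasome sensor Nlrp1b, which has close paralogs and is uncertain for that reason, rose by 0.86 (adjusted p = 0.031). Casp4, the mouse caspase-11 gene, fell by 0.84 (adjusted p = 0.0409). Casp1, which cleaves the IL-18 precursor, was at 113 and 107 FPKM in the female and male distal and 125 and 127 FPKM in the proximal libraries (log2 difference -0.19, adjusted p = 0.292).

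Of 11 kept genes of basolateral to apical transport, which IgA shares with other cargo, 1 rose and 2 fell in distal against proximal colon. Over all kept genes 6.47% rose and 7.64% fell. The other 8 genes of the list stayed short of the threshold (median -0.03). The 3 calls were lost without the male distal library. Rab25, a Rab of the apical recycling endosome, rose by 0.63 (SE 0.14, limma adjusted p = 0.0427), to 285 and 288 FPKM in the female and male distal libraries, against 189 and 181 FPKM in the proximal ones. Mal2, a membrane protein required for transcytosis in hepatic cells, fell by 0.84 (adjusted p = 0.00967), and Rab17, a Rab tied to transcytosis in polarized cells, fell by 0.99 (adjusted p = 0.0104). The clathrin adaptor subunit gene Ap1m2, which serves basolateral sorting in epithelia, averaged 93.7 FPKM (log2 difference 0.24, adjusted p = 0.239). In middle against proximal colon the 1 called gene was Rab27a, higher by 0.89 (adjusted p = 0.0342). Of 18 genes for factors and receptors known to drive or tune Pigr transcription, 0 were higher and 1 was lower in distal colon. The shares of all kept genes were 6.47% higher and 7.64% lower. The 1 gene was Il4ra, a chain of the IL-4 receptor, which fell by 1.195 (SE 0.18, limma adjusted p = 0.0131). Ifngr1, Irf1 and Tnfrsf1a had adjusted p = 0.195, 0.085 and 0.428.

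Among other chemokines, 7 of 26 passed the minimum. In distal against proximal colon 1 fell, Ccl9, 1 was past the threshold as higher, Cxcl5, and 5 stayed short of it (median 0.03). Over all kept genes 7.64% were called lower and 6.47% higher. Ccl9 fell by 2.07 (SE 0.23, limma adjusted p = 0.00678), to 0.897 and 0.498 FPKM in the female and male distal libraries, against 5.90 and 6.27 FPKM in the proximal ones. Of 7 kept myeloid markers (median log2 difference -0.03), Tyrobp moved the same way past the threshold and Cd14 the other way (1.19). The lymphocyte marker sum was lower in both distal libraries as well. The part of either list in the Ccl9 value was not tested. Cxcl5, a neutrophil attractant, was at 1.11 and 1.14 FPKM in the female and male distal libraries, 0.139 and 0.0865 FPKM in the middle ones and 0.154 and 0 FPKM in the proximal ones (log2 difference 0.98, adjusted p = 0.0482). It reached 1 FPKM in the distal libraries alone, so the minimum kept it through the region where it was high, which favoured this call. Ccl6 was the most abundant of them at 176 FPKM on average (adjusted p = 0.951), and Ccl5, which lymphocytes also make, had a log2 difference of -1.34 (adjusted p = 0.0978).

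Other cytokines that an epithelium can make gave 3 that rose, 1 that fell and 8 short of the threshold among 12 kept genes (median -0.12). Of all kept genes, 6.47% rose and 7.64% fell between distal and proximal colon. Il1rn, the antagonist of the IL-1 receptor, rose by 1.80 (SE 0.22, limma adjusted p = 0.00807), to 70.8 and 58.3 FPKM in the female and male distal libraries, against 27.5 and 11.3 FPKM in the proximal ones. Il34, a ligand of the CSF1 receptor, rose by 2.43 (SE 0.28, limma adjusted p = 0.0069), to 12.4 and 10.6 FPKM in the female and male distal libraries, against 2.62 and 0.487 FPKM in the proximal ones. Il7, a lymphocyte growth factor, rose by 0.77 (adjusted p = 0.0205). Tnfsf13b, which encodes BAFF, the B cell factor closest to APRIL, fell by 1.203 (SE 0.17, limma adjusted p = 0.0114), to 0.942 and 1.61 FPKM in the female and male distal libraries, against 3.89 and 4.51 FPKM in the proximal ones. Among 7 kept myeloid markers, Tyrobp was called lower and Cd14 higher in distal colon. The lymphocyte marker sum was also lower in both distal libraries than in both proximal ones. The part of either list in the Tnfsf13b value was not tested. APRIL and BAFF transcripts had fitted differences of opposite sign, with the BAFF one past the threshold. In middle against proximal colon 1 of these 12 genes was called, Il34, where 1.19% of all kept genes were called higher. It was higher by 1.72 (SE 0.28, limma adjusted p = 0.0483). That call was lost under 7 of 13 alternatives, among them a pseudocount of 0.1, no minimum, no variance trend and no sex term. Of the 14 genes called between distal and proximal colon in these related lists, 3 kept their call under each alternative tried, Il1rn, Il34 and Ccl9. The other 11 lost it without the male distal library, for Mal2 (adjusted p = 0.111) and Rab17 (0.0954) the only alternative to do so. Without the female distal library 8 lost it, Il2rg, Casp4, Gsdmd, Rab25, Cxcl5, Il7, Tnfsf13b and Il4ra. Calls over all kept genes also became fewer without either distal library, so these losses are not particular to the listed genes. Other settings also ended calls. Il2rg lost its call under 9 of 12 alternatives, among them a pseudocount of 0.1, no minimum, quantile scaling and no sex term. Casp4 lost it under 8 of 13, Rab25 under 7 of 13, Cxcl5 under 7 of 12, Il7 under 5 of 13, and Gsdmd and Nlrp1b under 3 of 13 each. Tnfsf13b and Il4ra lost it when the female or the male distal library was left out and under no other alternative. The highest adjusted p over the alternatives was 0.0858 for Tnfsf13b and 0.0974 for Il4ra, and reached 0.194 to 0.362 for the remaining ones. Rab27a in middle against proximal colon lost its call under 7 of 13 alternatives, up to adjusted p = 0.257.

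**Figure D4:**
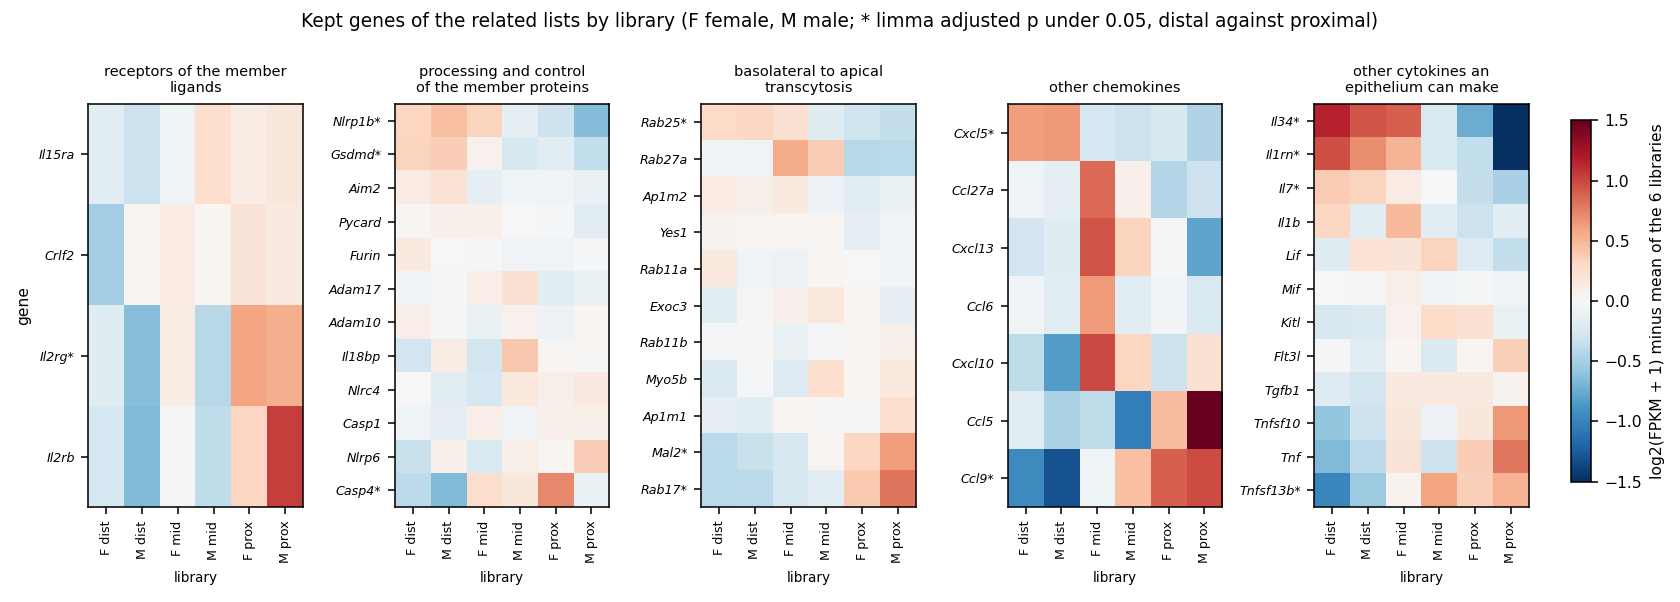
Each kept gene of 5 related lists in the 6 libraries, as log2(FPKM + 1) minus its mean over the libraries; values past the ends of the scale take its end colours, and a star marks limma adjusted p under 0.05 for distal against proximal colon. Il34 and Il1rn are highest in the distal libraries, and Ccl9, Mal2 and Rab17 in the proximal ones.

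By Pearson correlation of log2(FPKM + 1) over the 6 libraries, among 8655 other genes with a mean of at least 5 FPKM, the genes most like Pigr were Ttll10 (r = 0.995), Pdia3 (0.988), an isomerase of the endoplasmic reticulum, and Cetn3 (0.982). Those most like Ccl28 were Fam134b (0.998), a receptor for turnover of the endoplasmic reticulum, Dcaf4 (0.997) and Oxct1 (0.997), an enzyme of ketone body use. Those most like Il18 were Nrbp2 (0.997), Slc8b1 (0.996), a mitochondrial sodium-calcium exchanger, and Sorbs2 (0.995). A correlation over 0.95 was shared by 17 genes for Pigr, 249 for Ccl28 and 247 for Il18, and the 6 points share regions and sexes, so these are descriptions only.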

How the data were processed

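Stranded libraries of polyadenylated RNA were sequenced from 6 samples of colon epithelium, per the labels' protocols. The authors deposited FPKM per gene symbol, 1 file per library; the submitters' processing notes name Cuffdiff 2.2.1, SAMtools 0.1.18, TopHat2 2.1.1 and Bowtie2 2.2.8, and the mm10 build. Their settings, annotation and strand handling are unknown here. The members and gene lists were chosen with earlier results of these data known.

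FPKM are not counts, so log2(FPKM + 1) was fitted with limma 3.58.1 (R 4.3.3) over all 6 libraries with region and sex as additive terms and a variance trend, on the 11815 of 24346 entries with at least 1 FPKM in at least 2 libraries (2 residual and 3.49 prior degrees of freedom). P-values were adjusted by Benjamini-Hochberg over these genes, threshold 0.05, two-sided. The fit was run on simulated data with independent noise in each library, which cannot show how it behaves if libraries share animals. The replicate numbers of the libraries carry no label; sex matches the libraries across regions by its term in the model. Gene lists are described by counts and medians. The members were all named; of each list, the called genes and then the most abundant ones, up to 4; Rab27a, the genes listed at 0 and single cell type markers were named after their values were seen. Coordinates are from GENCODE M21 (mm10), with 23310 of 24346 entries matched by symbol.

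Depth and fragment numbers were estimated from the steps between small FPKM values, up to 0.2, in genes with 1 transcript longer than 1500 bases and an assumed fragment length of 200 bases, using each gene's longest coding transcript. They are approximate and cover counting error only. Alternatives were a pseudocount of 0.1, no minimum, a minimum of 5 FPKM, quantile or median-ratio scaling, no variance trend, no sex (or region) term, and leaving out 1 library at a time, with the remaining library of that region taken to have the spread of the rest. Figures were drawn with matplotlib 3.10.9.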

Additional observations from a re-analysis of the deposited data

Results flagged for a closer look

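For 6 values among the 9 kept members, the female and the male pair of libraries moved in opposite directions between regions. With 1 library per region and sex, these differences between the sexes were not tested; 28.7%, 40.3% and 39.1% of all kept genes moved in opposite directions for distal against proximal, middle against proximal and distal against middle colon. As the female minus the male log2 difference, Il15 gave 0.80 for distal against proximal colon (0.03 in female and -0.77 in male libraries), and Cx3cl1 gave -0.082 for middle against proximal colon. For distal against middle colon, Ccl20 gave -0.92, Ccl25 -0.45, Il18 -0.82 (-0.07 in female and 0.75 in male libraries) and Tnfsf13 -0.47.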

How the results depend on the processing

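Of 456 member values recomputed under the alternatives, 426 kept direction and side of the threshold, 9 lost their call and 10 gained one. Another 11 uncalled values changed sign, and 0 called values did. Most of the 456 were uncalled as reported. Ccl28 in distal against proximal colon lost its call under 1 of 13 alternatives. Il18 in that comparison and Ccl28 in middle against proximal colon each lost it under 4 of 13. The number of members called between distal and proximal colon, 2, became 1 with no minimum and 1 with no replicate block (sex left out), and ranged from 1 to 4 when 1 library was left out. Between middle and proximal colon, 1 became 0 with no minimum and 0 with no replicate block, and ranged from 0 to 4 when 1 library was left out. The other 2 comparisons stayed at 0 under each alternative. Without the female proximal library, Ccl25 and Il15 were called lower in distal colon, beside Ccl28 and Il18. With no minimum, more genes enter both the variance fit and the adjustment, and their parts were not told apart. The causes of these changes were not tested.

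Over all kept genes, the 1668 calls of distal against proximal colon became 340 without the male distal and 770 without the female distal library. The 289 of middle against proximal colon became 4 with no minimum, 187 with no variance trend and 24 without sex, and 0 to 806 with 1 library left out. The 59 of distal against middle colon became 2, 29 and 17 under the same settings, and 0 to 406 with 1 library left out. The 5 of female against male became 2 to 25 with 1 library left out. Depth limits Tslp, Ccl25 and Ccl20, which rest on few fragments.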
